A study of Mus musculus with 3 samples.

Results

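The genes described here are Ccl1, Ccl3, Ccl4, Ccl5 and Xcl1, 5 chemokine genes that T cells transcribe, out of 14811 genes in a single-cell RNA-seq table of T cells from mouse melanomas. They were chosen by name, and all 5 were in the table. Chemokines are small secreted proteins that guide leukocytes through G protein-coupled receptors. Ccl3 and Ccl5 bind Ccr1, Ccl5 also binds Ccr3, Ccl1 binds Ccr8, and Xcl1 (lymphotactin) binds Xcr1 on cross-presenting dendritic cells. Effector and memory CD8 T cells are known to keep Ccl5 transcripts in store, while Ccl3, Ccl4, Xcl1 and Ccl1 are known to be transcribed for a short time after antigen receptor signalling.

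The T cells came from B16F10 melanomas of 10 pooled mice. The mice had been given purified T cells by tail vein 1 day after the tumor cells, either CD4 cells marked by the CD45.1 allele or CD8 cells marked by CD45.2, and the tumors were taken on day 11. The labels call the cells untreated. Single-positive (CD4+ or CD8+) and double-positive (CD4+CD8+ or CD8+CD4+) cells were sorted by donor allele, tagged with hashtag antibodies and loaded together as 1 droplet library, so there are no replicate libraries and no test between conditions was possible. The table holds 5564 cells with 26763131 UMIs (unique molecular identifiers, each counting 1 captured RNA molecule), at 501 to 23946 UMIs per cell with a median of 3869.

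The authors' annotation gives each cell a Cd4 or Cd8 identity and marks some as Tdp, the label used for cells with both co-receptors. This makes 4 classes: the Cd4 class (2477 cells), Cd4-identity Tdp (93 cells), the Cd8 class (2681 cells) and Cd8-identity Tdp (313 cells). It also gives each cell a hashtag number from 1 to 4, which the labels tie to no sorted population, and every class held cells of all 4 numbers. T cell markers (Cd3e, Cd3d, Cd3g, Cd2, Lck) were found in 95.2% to 100% of the cells of each class, while 207 cells (3.72%) held at least 10 UMIs of macrophage or monocyte markers. Some cells held 2 T cell receptor beta variable genes (2 or more UMIs of each), which 2 cells in 1 droplet can give: 38.7% among Cd4-identity Tdp, 19.2% among Cd8-identity Tdp, 9.29% in the Cd4 class and 12.8% in the Cd8 class. Their part in the class differences was not tested beyond leaving them out.

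Each gene is described by the share of cells with at least 1 UMI and by its level, the UMIs summed over a class and scaled to a common total as CPM. Intervals are 95% and exact (Clopper-Pearson for shares, Poisson for levels, conditional binomial for ratios) and cover counting error only. In summed counts, more cells making a transcript and more transcript per cell cannot be told apart, so both measures are given.

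Ccl1, Ccl3, Ccl4 and Ccl5 lie on chromosome 11 of GRCm38.p6, where RefSeq places Ccl1 at chr11:82176666-82179812, Ccl5 at chr11:83525778-83530518, Ccl3 at chr11:83647843-83649378 and Ccl4 at chr11:83648624-83664683. Xcl1 lies at chr1:164931644-164935522. The records of Ccl3 and Ccl4 share 755 bases, and no source used here says whether reads were counted by strand, so the split of reads between these genes is uncertain. RefSeq promoter sequences were at hand for 3 of the 5 genes. They are shown because Ccl1, Ccl3 and Xcl1 turned up at high level in some of the same cells. Each line gives the 250 bases before the gene's start, 5′ to 3′ on the minus strand, which all 3 genes use, with matches to GGAAA, the core of the NFAT motif, in capitals on either strand.
Ccl1, chr11:82179813-82180062: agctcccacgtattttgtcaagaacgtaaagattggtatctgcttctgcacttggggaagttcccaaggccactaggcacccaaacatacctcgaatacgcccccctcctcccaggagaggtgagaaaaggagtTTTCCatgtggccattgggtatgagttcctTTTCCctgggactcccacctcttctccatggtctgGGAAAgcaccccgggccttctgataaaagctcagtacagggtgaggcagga
Ccl3, chr11:83649379-83649628: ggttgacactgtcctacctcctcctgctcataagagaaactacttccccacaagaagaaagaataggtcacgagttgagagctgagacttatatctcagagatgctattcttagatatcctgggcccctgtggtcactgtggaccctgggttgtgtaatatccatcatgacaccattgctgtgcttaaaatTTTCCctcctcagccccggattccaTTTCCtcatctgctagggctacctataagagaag
Xcl1, chr1:164935523-164935772: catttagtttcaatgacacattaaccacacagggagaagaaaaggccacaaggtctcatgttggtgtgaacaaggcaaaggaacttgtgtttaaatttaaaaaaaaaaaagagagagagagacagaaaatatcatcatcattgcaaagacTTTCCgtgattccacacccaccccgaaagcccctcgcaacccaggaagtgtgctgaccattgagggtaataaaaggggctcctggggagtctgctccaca

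GGAAA had 3 matches before Ccl1, 2 before Ccl3 and 1 before Xcl1. It is a short motif, present in 55.6% of the 32851 promoter windows of the same length. TATAAA (the TATA box), searched on both strands as all motifs were, had no match in these 3 windows and was in 12.4% of all. TGANTCA (AP-1) had none either and was in 6.75% of all windows. An NF-kB consensus of 10 letters had none and was in 1.41%. The absence of these letters says nothing of the factors' binding.

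Ccl5 was the broadly detected gene of the 5. Cd4 class cells held it in 50.5% of cases (48.5 to 52.5) and Cd4-identity Tdp cells in 78.5% (68.8 to 86.3). Cd8 class cells held it in 84.0% (82.5 to 85.3) and Cd8-identity Tdp cells in 95.8% (93.0 to 97.8). A positive cell held a median of 5, 18, 31 and 33.5 Ccl5 UMIs in this order of classes. Both measures were lowest in the Cd4 class, and the intervals of the shares do not overlap except between Cd4-identity Tdp and the Cd8 class. Tdp cells were sequenced more deeply (medians of 4668 and 4981 UMIs, against 3478 in the Cd4 class and 4159 in the Cd8 class). After thinning every cell to 2000 UMIs, which kept 5143 cells, the shares were 41.7%, 68.5%, 80.4% and 92.2%, in the same order.

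**Figure D1:**
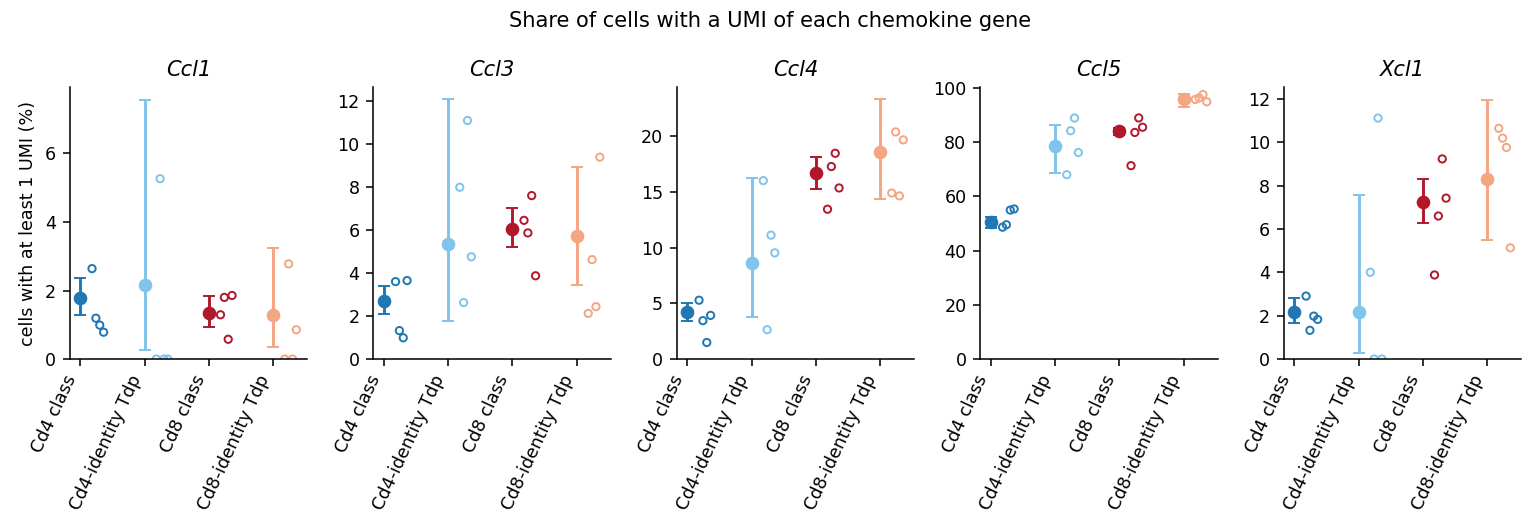
Share of cells with at least 1 UMI of each gene (y axis, percent, with its own scale per gene) in the 4 classes (x axis). Filled points are all cells of a class with 95% exact intervals, and open points are hashtag numbers 1 to 4 from left to right. Ccl5 ran from 50.5% to 95.8%, while no class exceeded 18.5% for Ccl4 or 2.15% for Ccl1.

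The Cd4 class, the Cd8 class and Cd8-identity Tdp kept their order of Ccl5 shares under each hashtag number. In the Cd4 class the shares under numbers 1 to 4 were 48.6%, 49.5%, 55.0% and 55.3%. In the Cd8 class they were 71.3%, 83.6%, 88.9% and 85.5%, and in Cd8-identity Tdp 95.7%, 96.3%, 97.6% and 94.9%. Every Cd8 class value was above every Cd4 class value, every Cd8-identity Tdp value was above every Cd8 class value, and number 1 stood lowest in the Cd8 class. Number 1 also had the largest share of Cd8 class cells with macrophage markers (12.1%, against at most 5.90% under the other numbers) and with NK markers (18.9%, against 4.38% to 11.5%). A cell can pass both gates, and their part in the Ccl5 share of number 1 was not tested. In Cd4-identity Tdp the shares were 68.0%, 84.2%, 88.9% and 76.2%, from 25, 38, 9 and 21 cells, above the Cd4 class under each number, and above or equal to the Cd8 class to the digits given under numbers 2 and 3.

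The level of Ccl5 followed another order than its share. The Cd8 class stood highest at 7700.2 CPM, before Cd8-identity Tdp at 6809 CPM, Cd4-identity Tdp at 3708 CPM and the Cd4 class at 1563 CPM. Cd8-identity Tdp therefore had the highest share of positive cells but not the highest level. By hashtag number the Cd8 class stood at 5252, 8471, 8357 and 7399.6 CPM, and Cd8-identity Tdp at 5760.4, 5728, 8283 and 7739 CPM, so these ranges overlap. After thinning, the median cell of both of these classes held 11 Ccl5 UMIs. The lower quartile was 2 UMIs in the Cd8 class and 4 in Cd8-identity Tdp, and the upper quartile 27.25 and 24, a narrower spread in the Tdp cells.

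Within a class Ccl5 differed with the marker transcripts found in a cell, whose detection also depends on depth. Among Cd8 class cells, 90.6% of the 2279 with a UMI of Cd8b1, the CD8 beta chain, had Ccl5, against 46.3% of the 402 without. Among Cd4 class cells the values were 61.0% of 290 cells with Cd8b1 and 49.1% of 2187 without. Of the 402, 168 were in the macrophage gate or had no T cell marker UMI. The other 234, a subset taken after seeing the data, had Ccl5 in 57.3% (50.7 to 63.7), or 59.2% (51.1 to 67.0) after thinning. The same subset of the Cd4 class, 2130 cells, had it in 49.2% (47.1 to 51.3), or 40.6% (38.4 to 42.8) after thinning. In Cd4-identity Tdp, 92.5% of the 53 cells with Cd8b1 had Ccl5. All 93 cells of the class, which include these 53, had it in 78.5%, both without thinning. The level was 3974 CPM in the 53 cells with Cd8b1 and 3102 CPM in the 40 cells without. Cd4 class cells with a read of Foxp3, the regulatory T cell factor, had a similar share to those without (51.9% of 555 against 50.1% of 1922 cells), but a lower level of 1164 CPM against 1678 CPM.

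Cycling cells (at least 5 UMIs of Mki67, Top2a, Ccna2, Birc5 and Cdk1) stood at 4981 CPM in the Cd8 class, against 8507 CPM in the others. The 2045 Cd8 class cells outside the macrophage, NK, cycling and Foxp3 gates stood at 9916 CPM, and 85.3% (83.6 to 86.9) of them had Ccl5 after thinning. The same remainder of the Cd4 class, 1690 cells, stood at 1919.6 CPM and had it in 41.3% (38.8 to 43.8).

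As a background, 78 cells with macrophage markers and no T cell marker UMI held Ccl5 in 16.7% (9.18 to 26.8), Xcl1 in 1.28% and Ccl1 in 1.28% (0.0324 to 6.94 for each), at a median of 6938 UMIs per cell. The shares of Ccl5 in all 4 T cell classes lie above this although those cells were shallower. The shares of Ccl1, 1.28% to 2.15% in the 4 classes, do not, so classes are not compared by their share of Ccl1 and the gene is described mainly by its few high cells. This background rests on 1 of the 78 cells. The 66 cells with exactly 1 Ccl1 UMI held Xcl1 in 16.7% (8.62 to 27.9) and Ccl3 in 15.2% (7.51 to 26.1), against 4.73% and 4.25% of cells without Ccl1, all without thinning. The Xcl1 share of the Cd4 class, 2.18%, also lies within the interval of this background, and that of the Cd8 class, 7.24% (6.28 to 8.28), overlaps its upper end. These macrophage-marker cells held Ccl3 in 15.4% and Ccl4 in 20.5%, genes that macrophages are known to make, so they give no background for that pair. Whether they also transcribe Ccl5 was not tested, so their 16.7% can lie above a true background. For Ccl4 the 555 Foxp3-positive Cd4 class cells are given as the low reference, at 3.24% and a median of 3345 UMIs.

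Ccl4 was found in 16.7% of Cd8 class cells (15.3 to 18.1) and 18.5% of Cd8-identity Tdp cells (14.4 to 23.3). Cd4 class cells held it in 4.20% (3.44 to 5.06) and Cd4-identity Tdp cells in 8.60% (3.79 to 16.3). The thinned shares were 9.92%, 10.7%, 2.32% and 3.37% in this order. Both Cd8 classes thus stood above the Cd4 class at equal depth, and their own intervals overlapped. By hashtag number, the Cd8 class had Ccl4 in 13.4%, 17.3%, 18.5% and 15.3% of cells and the Cd4 class in 5.28%, 3.44%, 1.49% and 3.92%, with no overlap. A positive cell held a median of 1 UMI in each class.

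Ccl3, whose product is closely related to that of Ccl4, was rarer. Its shares were 6.08% (5.21 to 7.05) in the Cd8 class and 5.75% (3.44 to 8.94) in Cd8-identity Tdp. They were 2.70% (2.10 to 3.42) in the Cd4 class and 5.38% (1.77 to 12.1) in Cd4-identity Tdp. Cd4 class shares by hashtag number were 3.61%, 1.32%, 0.990% and 3.66%, and Cd8 class shares were 6.46%, 5.88%, 7.61% and 3.88%. The Cd8 class was higher within each number, although its lowest value is close to the highest Cd4 class value.

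Xcl1 was found in 7.24% of Cd8 class cells (6.28 to 8.28) and 8.31% of Cd8-identity Tdp cells (5.50 to 11.9). Of the Cd4 class 2.18% held it (1.64 to 2.83), and among Cd4-identity Tdp 2 cells, 2.15%. By hashtag number the Cd8 class shares were 3.88%, 6.59%, 9.23% and 7.42%, and the Cd4 class shares 2.90%, 1.32%, 1.98% and 1.83%. The Cd8 class values were all above the Cd4 class values before thinning. After thinning the order turned under number 1, at 1.14% in the Cd8 class and 1.90% in the Cd4 class, and held under the other numbers. The Cd8-identity Tdp share after thinning was 2.91%, below the 4.32% of the Cd8 class, so the order of these 2 classes is not read from the unthinned share. Ccl1, made by few T cells, was found in 1.78% of the Cd4 class and 1.34% of the Cd8 class.

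Apart from Ccl5, the summed levels rested on very few cells. The 3 cells with most UMIs held 57.7% of all Ccl1 UMIs, 40.3% of Xcl1, 35.6% of Ccl3 and 32.0% of Ccl4, against 0.843% of Ccl5. Among 5981 genes with at least 500 UMIs, these shares ranked 2, 5, 8 and 9 for Ccl1, Xcl1, Ccl3 and Ccl4 and 4217 for Ccl5, and the median gene had 1.10%. To reach 50% of the UMIs took 3 cells for Ccl1, 7 cells for Ccl3 and for Xcl1, 9 cells for Ccl4 and 581 cells for Ccl5. The 4 genes are thus among the most concentrated of the table by their top 3 cells, and Ccl5 is not. By the Fano factor (variance over mean of UMIs per cell), Ccl5 was also uneven, at 62.0 and rank 17, where the median gene had 1.22.

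**Figure D2:**
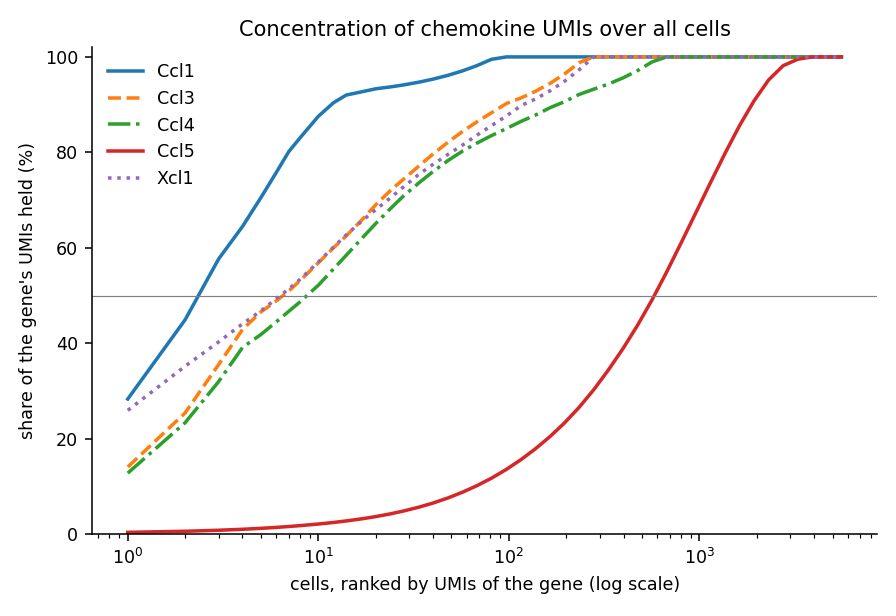
Share of each gene's UMIs (y axis, percent) held by its top cells (x axis, number of cells ranked by UMIs of that gene, log scale) over all 5564 cells. The grey line marks 50%, which Ccl1 reached with 3 cells, Ccl3 and Xcl1 with 7, Ccl4 with 9 and Ccl5 with 581.

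The other positive cells held little. Exactly 1 UMI was counted in 66 of 86 Ccl1-positive cells, 157 of 253 Ccl3-positive cells, 373 of 617 Ccl4-positive cells and 164 of 276 Xcl1-positive cells, but in 522 of 3874 Ccl5-positive cells. Cells with at least 10 UMIs of the gene, called high cells below, held 80.1% of Ccl4, 72.7% of Ccl3, 71.2% of Xcl1 and 90.4% of Ccl1 UMIs.

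There were 56 high cells of Ccl4, 25 of Ccl3, 25 of Xcl1 and 12 of Ccl1, and 82 cells were high in at least 1 of the 4 genes. The Cd8 class had 47 of them (1.75%, 1.29 to 2.32), the Cd4 class 30 (1.21%, 0.819 to 1.72), Cd8-identity Tdp 4 (1.28%) and Cd4-identity Tdp 1. The pooled intervals of all 4 classes overlap, but the order of the Cd4 and Cd8 classes turned with the hashtag number. Under numbers 1 to 4 the Cd4 class had 1.93%, 0.397%, 0% and 1.31%, with 22 of its 30 high cells under number 1. In the Cd8 class the lowest value was 1.29% under number 1, the next 1.69% under number 4, and the highest 1.96% under number 3. The Cd4 class was thus above the Cd8 class under number 1 only. No intervals were taken per number. The 82 cells were deeper than the rest, with a median of 7699 UMIs, and 7 of them were in the macrophage gate, 20 in the NK gate and 19 in the cycling gate. The gates overlap, and all 7 cells of the macrophage gate were also in the NK gate. The NK markers include Tyrobp, which myeloid cells also make. Of the 82 cells 11 held 2 T cell receptor beta variable genes, as did 668 of all 5564 cells.

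Ccl3 and Ccl4 were high in the same cells. Of 25 Ccl3-high cells, 23 were also Ccl4-high, and these 23 held between 0.5 and 11.3 Ccl4 UMIs per Ccl3 UMI, with a median of 2.76. The relation was not symmetric, since only 23 of the 56 Ccl4-high cells were Ccl3-high and 9 had no Ccl3 UMI at all. After thinning, Ccl4 was found in 47.7% of Ccl3-positive cells (38.9 to 56.6) and in 5.47% of the rest. The uncertain split of reads between these overlapping records bears on both values.

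**Figure D3:**
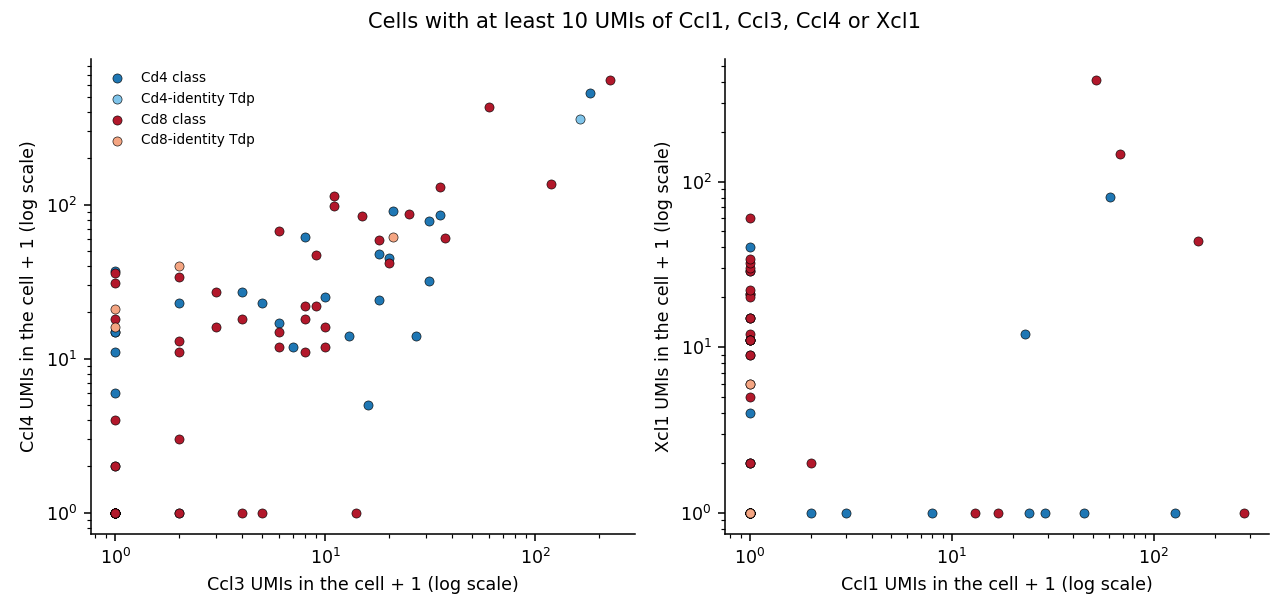
UMIs per cell plus 1 (both axes on log scales) in the 82 cells with at least 10 UMIs of Ccl1, Ccl3, Ccl4 or Xcl1, coloured by class, with Ccl3 against Ccl4 on the left and Ccl1 against Xcl1 on the right. Ccl3 and Ccl4 run along a diagonal, while Ccl1-high cells fall into 5 that were also Xcl1-high and 7 without an Xcl1 UMI.

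A few cells were high in several of the genes. The cell with most Ccl4, in the Cd8 class under hashtag number 2, held 641 Ccl4, 407 Xcl1, 225 Ccl3 and 51 Ccl1 UMIs beside 128 of Ifng, 90 of Il2 and 42 of Tnf, among 9616 UMIs. Together with its 18 Ccl5 UMIs, the 5 chemokine genes made up 14.0% of its RNA. Of the 82 high cells, 55 were high in 1 of the 4 genes, 20 in 2, 5 in 3 and 2 in all 4.

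The 12 Ccl1-high cells were 6 of the Cd4 class and 6 of the Cd8 class. All 12 held Cd3e, none was in the macrophage or NK gate and none held Foxp3. The highest, with 280 Ccl1 UMIs, was in the Cd8 class and held no Xcl1, no Ccl4 and no Ccl5. Ifng was found in 10 of the 12, Tnfrsf9 (4-1BB, an activation-induced receptor) in 11 and Csf2, which encodes GM-CSF, in 8. In all other cells the shares were 15.7%, 19.6% and 1.03% in this order, without thinning. The 12 cells were deeper, at a median of 8000.5 UMIs against 3869 over all cells. Ccl5 was found in 5 of the 12, 41.7% (15.2 to 72.3), against 69.7% of all other cells.

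Xcl1-high cells included cells with NK receptor transcripts. Of the 25, 9 were in the NK gate (at least 5 UMIs of Ncr1, Klrb1c, Klre1, Klra4, Klra8, Eomes and Tyrobp, the last also made by myeloid cells), 7 held Ncr1 or Klrb1c and 21 held Cd3e. Over all cells, Xcl1 was found in 14.1% of the 348 cells of the NK gate and 4.35% of the others, or 8.16% and 2.48% after thinning. Cells of the NK gate held 295 of the 1568 Xcl1 UMIs. Without cells holding 2 or more NK marker UMIs, the Cd8 class remained above the Cd4 class for Xcl1, with a log2 ratio of 2.47 against 1.95 in all cells.

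Genes most alike in their pattern over the 5564 cells were ranked by Pearson's r of ln(1 + UMIs per 10000) among 10326 genes found in at least 1% of cells. These points share 1 library and differ in depth, so r is a description. Ccl5 went with Nkg7 (0.65), Cd8b1 (0.58), Cd8a (0.49), Gzmk (0.46) and Ctsw (0.39), genes of cytotoxic granules and of CD8 itself. Ccl3 went with Ccl4 (0.54), and both with Ifng, Egr2 and Nr4a1 at 0.22 to 0.26, Egr2 and Nr4a1 being early genes of receptor signalling. Ccl1 went with Csf2 (0.36), Cd70 (0.26) and Gzmc (0.24). Xcl1 went with Klrb1c (0.24), Ccl3 (0.23) and Ncr1 (0.22).

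Activation genes differed in how they went with the chemokine genes in thinned cells. Nr4a1 was found in 16.2% of Ccl3-positive cells (10.3 to 23.6) and 2.43% of the rest, in 10.1% of Ccl4-positive cells against 2.27%, and in 12.2% of Xcl1-positive cells against 2.50%. It was found in 2.55% of Ccl5-positive cells and 3.19% of the rest, so Ccl5 did not share this pattern. Cd69, an early activation marker, was found in 28.5% of Ccl3-positive cells (20.9 to 37.0), below the 39.2% of the rest, and in 34.8% of Ccl4-positive cells (29.7 to 40.2) against 39.2%. Tnfrsf9 was found in 16.9% of Ccl3-positive cells (10.9 to 24.5) against 13.2%, in 12.2% of Ccl4-positive cells (8.90 to 16.2) against 13.4%, and in 23.1% of Xcl1-positive cells (16.6 to 30.8) against 13.0%. Csf2 was found in 20.5% of the 39 Ccl1-positive cells (9.30 to 36.5) against 0.451% of the rest, and in 6.12% of Xcl1-positive cells against 0.440%. Foxp3 was found in 2.68% of Ccl4-positive cells (1.23 to 5.02) and 8.99% of the rest, and in 6.16% of Ccl5-positive cells against 12.9%. Without thinning the order of Cd69 turned, to 60.5% of Ccl3-positive cells (54.2 to 66.5) against 56.3%, and 57.4% of Ccl4-positive cells (53.4 to 61.3) against 56.4%. Unthinned Tnfrsf9 stood at 28.9% (23.4 to 34.9) against 19.4% for Ccl3, and 20.1% (17.0 to 23.5) against 19.7% for Ccl4. Tnfrsf9 was found in 14 of 25 Ccl3-high cells and 25 of 56 Ccl4-high cells, which were deeper than most. All shares of this paragraph pool the cells of all classes, which differ in their shares of Ccl4 and Ccl5. Within the Cd4 class, without thinning, cells with and without Foxp3 had similar shares of Ccl5, as given above. The part of the class mix in these pooled contrasts, including those of Cd69 and Tnfrsf9, was not tested.

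**Figure D4:**
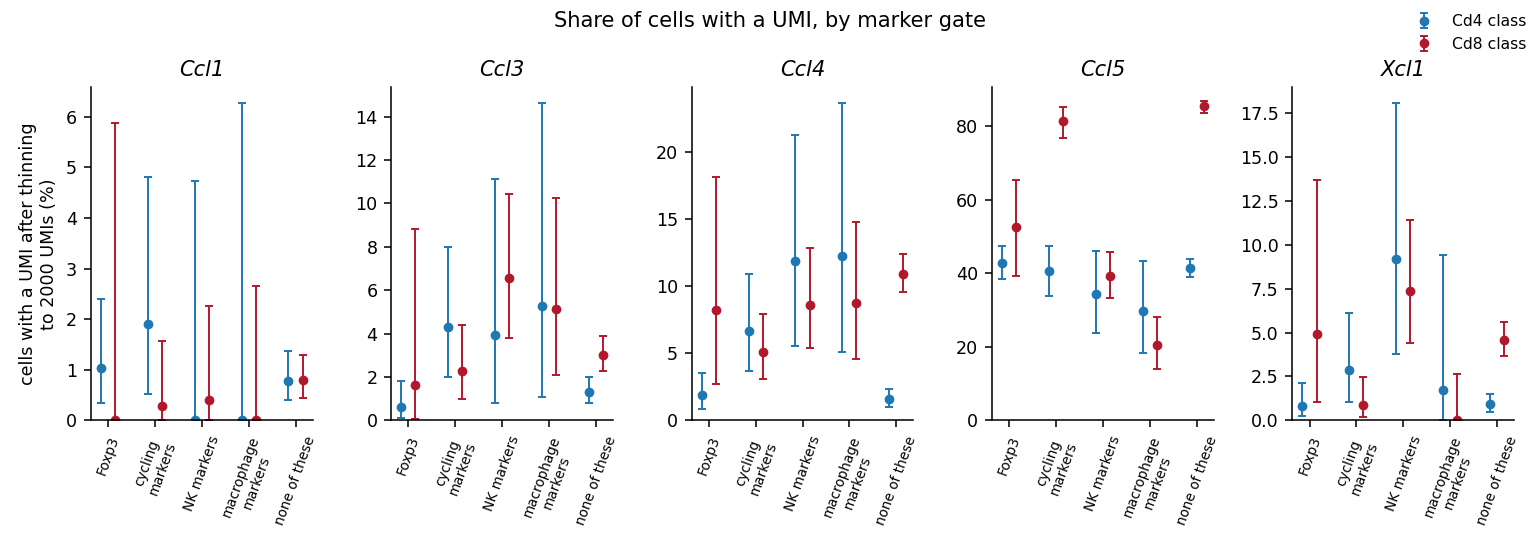
Share of cells with a UMI after thinning to 2000 UMIs (y axis, percent, with its own scale per gene) in cells of the Cd4 and Cd8 classes that passed each marker gate (x axis); bars are 95% exact intervals and a cell can pass several gates. In cells that passed none, Ccl4 was found in 10.9% of the Cd8 class and 1.57% of the Cd4 class, and Ccl5 in 85.3% and 41.3%.

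Ratios between classes were taken from summed CPM over every gene with at least 20 UMIs in both classes together. A gene was called where the ratio was at least 1.5-fold and its interval left out 1. Between the Cd8 class and the Cd4 class, 3 of the 5 genes were called, all higher in the Cd8 class, where 8.19% of 11643 genes were called higher and 6.55% lower. Ccl5 was 4.93-fold higher (4.85 to 5.01), Xcl1 3.86-fold higher (93.2 against 24.1 CPM, 3.38 to 4.43) and Ccl4 1.77-fold higher (225 against 127 CPM, 1.66 to 1.89). Ccl1 (45.9 against 33.7 CPM, 1.36-fold) and Ccl3 (63.9 against 48.4 CPM, 1.32-fold) were not called. Ccl3 was called higher without cells with 2 T cell receptor beta variable genes, at 2.32-fold, and without cells with UMIs of other cell types, at 1.56-fold. Ccl5 was higher in the Cd8 class within 4 of 4 hashtag numbers, and Ccl3, Ccl4 and Xcl1 within 3 of 4.

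The Cd4 class sums of Ccl3 and Ccl4 rested on hashtag number 1. Ccl4 there stood at 200.5 CPM, against 33.0, 3.74 and 114 CPM under numbers 2 to 4, and 1 cell held 528 of the 1360 Ccl4 UMIs of the class. In the Cd8 class Ccl4 stood at 84.0, 332, 255 and 136 CPM under numbers 1 to 4. Number 1 was thus the highest in the Cd4 class and the lowest in the Cd8 class. Without hashtag number 1 the log2 ratio of Cd8 class to Cd4 class was 2.23 for Ccl4 and 1.95 for Ccl3, against 0.82 and 0.40 in all cells, and without number 2 it was 0.16 and -0.46. Without the top 1% of cells of each class (25 Cd4 class and 27 Cd8 class cells, an alternative chosen after seeing the data) Ccl3, Ccl4, Ccl5 and Xcl1 were all called higher in the Cd8 class, at log2 ratios of 1.56, 2.28, 2.45 and 2.88. Ccl1 is not read in that setting, which left 9 Cd8 class and 19 Cd4 class UMIs. In that setting 10.2% of all genes tested were called higher and 6.8% lower.

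Cd8-identity Tdp was called lower than the Cd8 class in summed level for 4 of the 5 genes, where 4.6% of 11040 genes were called lower and 2.07% higher. Ccl1 was 21.6-fold lower (8.39 to 79.5, from 4 UMIs in Tdp cells), Xcl1 3.81-fold lower (24.5 against 93.2 CPM, 2.84 to 5.23), Ccl3 2.45-fold lower (26.1 against 63.9 CPM, 1.84 to 3.34) and Ccl4 1.87-fold lower (121 against 225 CPM, 1.63 to 2.14). Ccl5 was 1.13-fold lower (1.11 to 1.15) and not called. Within hashtag numbers and after thinning, the Tdp share of cells was the higher one in 4 of 4 for Ccl5, 2 of 4 for Ccl3 and for Ccl4, 1 of 4 for Xcl1 and 0 of 4 for Ccl1. Without thinning it was higher in 4 of 4 for Ccl5, 3 of 4 for Ccl4 and Xcl1 and 1 of 4 for Ccl3 and Ccl1. The counts for the Ccl1 share are not read, since it lay at the background. Under number 3 no thinned cell of either class held Ccl1, a tie that counts as not higher. The summed level within hashtag numbers was higher in Cd8-identity Tdp in 2 of 4 for Ccl5, 1 of 4 for Ccl3, Ccl4 and Xcl1 and 0 of 4 for Ccl1. Under number 4, Ccl4 was 1.61-fold higher in Cd8-identity Tdp (1.32 to 1.96), the reverse of the pooled sums.

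The lower sums depended on how many of the highest cells were left in. The highest Cd8-identity Tdp cell held 61 Ccl4, 20 Ccl3, 8 Xcl1 or 1 Ccl1 UMIs, while the highest Cd8 class cell held 641, 225, 407 or 280. Without the top cell of each class the 4 genes were still called lower, at log2 ratios of -3.97 for Ccl1, -1.64 for Xcl1, -1.61 for Ccl3 and -1.01 for Ccl4. Without the 3 top cells of each class they were called too, at -3.92, -1.63, -1.67 and -1.24. Without the top 1% of cells of each class (4 Tdp and 27 Cd8 class cells) none of the 5 genes was called, where 4.69% of all genes were called lower and 2.57% higher, and the log2 ratios were -0.58 for Ccl3, -0.21 for Ccl4 and -0.54 for Xcl1. With UMIs capped at 10 per cell, also chosen after seeing the data, the log2 ratios were -1.66 for Ccl1, -0.66 for Xcl1, -0.53 for Ccl3 and -0.13 for Ccl4, of which Ccl1 and Xcl1 were called. Without hashtag number 2, which holds the top Cd8 class cell, Ccl3 and Ccl4 were not called.

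Cd4-identity Tdp had 3 genes called higher and 2 called lower than the Cd4 class, where 2.2% of 10602 genes were called higher and 2.92% lower. Ccl5 was 2.37-fold higher and was higher within 3 of 3 hashtag numbers with at least 20 Tdp cells. Its log2 ratio was 1.37 without the top 1% of cells of each class, 0.63 when capped at 10 UMIs and 1.57 without cells with 2 T cell receptor beta variable genes, against 1.25 in all cells. Ccl5 was found in 73.7% of the 57 Tdp cells without such a pair and 86.1% of the 36 with one.

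The higher Ccl3 and Ccl4 of Cd4-identity Tdp came from 1 cell. That cell, under hashtag number 1, held 162 of the 166 Ccl3 UMIs and 357 of the 369 Ccl4 UMIs of the class, among 8663 UMIs, with 44 T cell marker UMIs and none of macrophage markers. By hashtag number the Tdp class stood at 2789, 4.65, 55.6 and 21.7 Ccl4 CPM. The ratio to the Cd4 class was 5.99-fold for Ccl3 and 5.07-fold for Ccl4 with this cell. Without the top cell of each class the log2 ratios were -2.15 and -1.87, and without the top 1% of each class, which is 1 Tdp cell and 25 Cd4 class cells, they were 0.60 and 0.84 and not called. In the latter setting 3.42% of all genes were called higher and 1.81% lower. Taking 1 cell from 93 and 1 from 2477 lowers the smaller class more, and moved the median log2 ratio of all genes from -0.03 to -0.20. Ccl1 and Xcl1 were called lower from 2 and 4 Tdp UMIs.

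**Figure D5:**
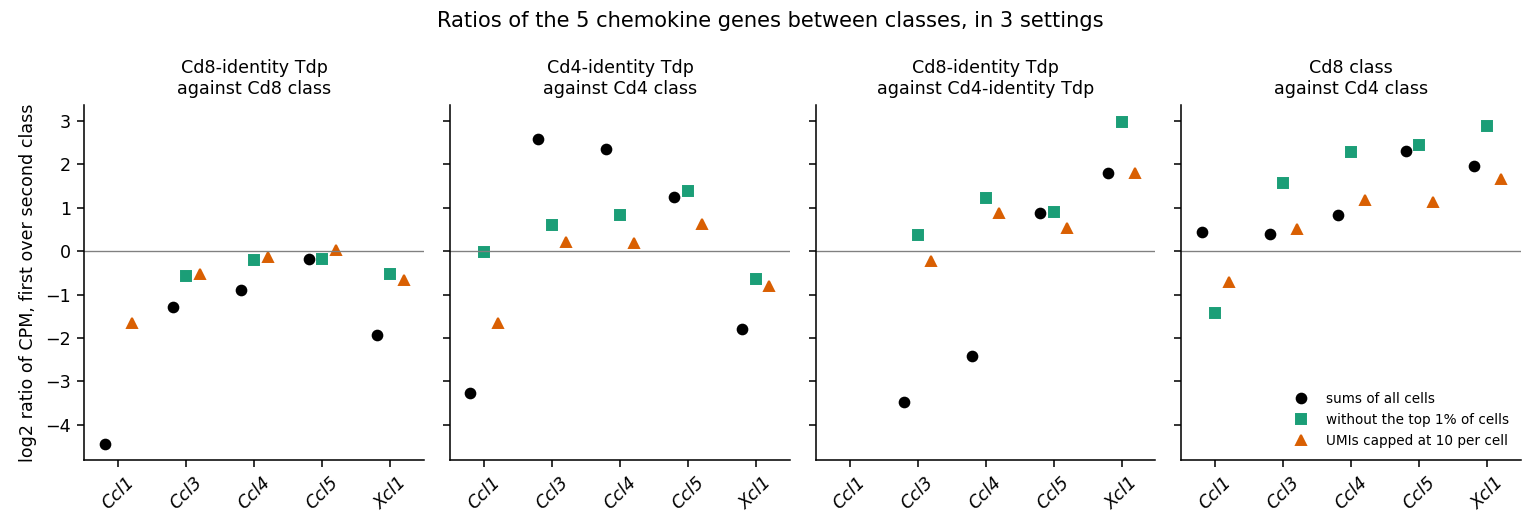
Log2 ratio of CPM, first class over second (y axis), of the 5 genes (x axis) in the 4 comparisons, from sums of all cells, without the top 1% of cells of each class and with UMIs capped at 10 per cell. Ccl3 and Ccl4 in Cd4-identity Tdp against the Cd4 class fall from 2.58 and 2.34 to 0.60 and 0.84 without the top 1%, while Ccl5 is at 1.25 and 1.37; Ccl1 is not drawn between the Tdp classes (6 UMIs) nor where a class had no UMI left.

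Between the Tdp classes, 4 of the genes had enough UMIs. Ccl5 was 1.84-fold higher in Cd8-identity Tdp (1.75 to 1.92) and Xcl1 3.50-fold higher (46 against 4 UMIs, 1.28 to 13.4), where 3.95% of 8121 genes were called higher and 3.09% lower. Without cells with 2 T cell receptor beta variable genes, Ccl5 was 1.42-fold higher (1.34 to 1.51) and not called. Ccl3 and Ccl4 were called lower, at 11.1-fold and 5.34-fold. This direction rested on the same Cd4-identity cell, since without the top 1% of each class the log2 ratios were 0.38 and 1.23, where 3.14% of all genes were called higher and 3.95% lower.

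The receptors described for these chemokines were Ccr1, Ccr3, Ccr8 and Xcr1. Ccr8, the Ccl1 receptor, was found in 6.07% of Cd8-identity Tdp cells, 3.28% of Cd8 class cells, 7.53% of Cd4-identity Tdp cells and 11.5% of Cd4 class cells, and was 4.49-fold lower in the Cd8 class than in the Cd4 class (3.69 to 5.49). Ccr1 had 87.9% of its 422 UMIs in the macrophage gate, and Xcr1 had 69 UMIs in all. Of these 4 receptors, Ccr1 (267 against 136 UMIs) and Xcr1 (51 against 17 UMIs) were called higher and Ccr3 and Ccr8 lower in the Cd8 class than in the Cd4 class, beside 8.19% higher and 6.55% lower among all genes tested. The macrophage gate held 5.26% of Cd8 class and 2.30% of Cd4 class cells, and its part in the call of Ccr1 was not tested.

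The other chemokine genes of the table lay mostly in macrophage-marker cells. Of 17 such genes, 14 had at least 100 UMIs, and 10 of these had most of their UMIs in the 207 cells of the macrophage gate, such as Ccl2 (98.0%), Ccl7 (99.2%) and Ccl6 (95.5%). None of the 5 T cell chemokine genes did. The gate held 0.405% of Ccl1, 0.765% of Xcl1 and 0.914% of Ccl5 UMIs, but 5.82% of Ccl3 and 6.26% of Ccl4 UMIs, close to its 7.59% of the UMIs of all genes. In the Cd8 class, 12 of 16 other chemokine genes tested were called higher than in the Cd4 class and 0 lower. Among all genes 8.19% were called higher and 6.55% lower. In Cd8-identity Tdp, 10 of 16 were called lower than in the Cd8 class and 0 higher, beside 4.6% and 2.07% of all genes. The called members had the same directions, and the part of the macrophage gate was not tested.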

How the data were processed

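The deposited file holds raw UMI counts per gene and cell of 1 pooled 5′ droplet library, with the authors' class, identity and hashtag number per cell. The submitters' processing notes name Cell Ranger 3.1.0, Seurat 3.2.3 and mm10, with no role or order. Cell and gene filters and any doublet removal are not given in the sources used here. No cell was removed and no doublet caller was run; cells with 2 beta variable genes were left out as an alternative.

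Counts were summed per class and divided by the class total, leaving out 117 T cell receptor and immunoglobulin genes (0.325% of UMIs). Gates were sums of marker UMIs. With 1 library, no p-value was computed. The ratio rule (1.5-fold, 20 UMIs) was tried on simulated Poisson counts, over genes with at least 100 expected UMIs. Those counts lacked the uneven spread over cells seen in the 5 genes, so the simulation cannot show how the rule behaves for them. Alternatives covered depth, top cells, other cell types, cycling, TMM scaling (edgeR 4.0.16), filters and each hashtag number. Python 3.11.15, numpy 2.4.6 and scipy 1.17.1 were used. The genes named were the 5 members, up to 5 genes most alike, receptors, other chemokines and activation genes. Members, lists and motifs were chosen with earlier results of these data known, and 3 alternatives (without the top cell, without the top 1% of cells, UMIs capped at 10) after seeing the data. One planned gate and one planned receptor are not reported here.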

Additional observations from a re-analysis of the deposited data

How the results depend on the processing

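Intervals cover counting error only, and in Ccl1, Ccl3, Ccl4 and Xcl1 single cells outweigh it. No paired analysis was possible because there was 1 library. The number of the 5 genes called between Cd8-identity Tdp and the Cd8 class was 4, and 2 without hashtag number 2, 0 without the top 1% of cells of each class and 2 with UMIs capped at 10 per cell. Between Cd4-identity Tdp and the Cd4 class it was 5, and 3 after thinning to 2000 UMIs, 1 without the top 1% and 1 with the cap. Between the Tdp classes it was 4, and 2 with the cap. Between the Cd8 and Cd4 classes it was 3, all higher in the Cd8 class. It was 5 after thinning, without NK marker cells, without cycling cells, with the mean of per-cell CPM and without the top 1%. For the mean of per-cell CPM genes were called by size alone, without an interval. The 5 without the top 1% include Ccl1, called lower in the Cd8 class from 9 and 19 UMIs. The alternatives on the top cell, the top 1% and the cap were chosen after seeing the data. Ccl1 between the Cd8 and Cd4 classes turned with the setting: its log2 ratio was 0.44 and not called, 0.88, 0.69 and 2.18 and called after thinning, without NK marker cells and without cycling cells, and -0.59, -0.71 and -1.42 without the 3 top cells, with the cap and without the top 1%, the last from 9 and 19 UMIs.

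Of the called log2 ratios, those of Ccl3 and Ccl4 in Cd4-identity Tdp against the Cd4 class changed sign: -2.82 and -2.75 without the 3 top cells of each class, -1.45 and -1.40 without hashtag number 1, and -2.15 and -1.87 without the top cell. Against Cd8-identity Tdp they changed sign as well, to 1.57 and 2.66, 2.15 and 2.75, and 1.12 and 2.06 under the same settings, to 0.38 and 1.23 without the top 1%, and to 0.87 for Ccl4 with the cap. These settings remove or limit the 1 cell that held most of both genes. Xcl1 in Cd4-identity Tdp against the Cd4 class turned to 0.20 after thinning, from 4 UMIs; the cause was not tested. Removing 3 cells per class takes a larger part of a small class: it moved the median of all genes to -0.51 between Cd4-identity Tdp and the Cd4 class, to 0.21 between the Tdp classes and to -0.13 between Cd8-identity Tdp and the Cd8 class, while the top 1% left it between -0.02 and 0.03. TMM scaling, the inclusion of receptor genes and no minimum of UMIs changed no call of the 5 genes in the 4 comparisons. A minimum of 100 UMIs left Xcl1 untested between the Tdp classes, where it had 46 and 4 UMIs. Without cells with 2 T cell receptor beta variable genes, Ccl3 in Cd4-identity Tdp was 18.5-fold above the Cd4 class, again from the 1 cell.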
